A study of Homo sapiens with 20 samples.

Results

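The expression of 9 stress-response genes, *ATF3*, *ATF4*, *ATF5*, *DDIT3*, *CEBPB*, *CEBPD*, *CEBPG*, *CREB5* and *TRIB3*, was examined in RNA-seq of lung cancer cell lines with *ADAR* knockout (KO). The genes were chosen by name, with earlier results of these data known, and each was found by its Ensembl identifier among the 58233 identifiers of the count files. Counts of them set beside the share over all genes are therefore descriptions and not independent evidence. All 9 passed the filter on low counts in every fit. The data cover 4 lines, and all cells carried Cas9 and a single guide RNA (sgRNA) from a lentiviral vector, followed by antibiotic selection. The sgRNA was directed against *GFP*, as the control, or against *ADAR*, which encodes the RNA-editing enzyme ADAR1. HCC366 (lung adenosquamous carcinoma), NCI-H1650 (lung adenocarcinoma) and NCI-H196 (variant small cell lung cancer) are ADAR1-dependent cell lines. They received no interferon, and their RNA was isolated 5 days after transduction. A549 (lung adenocarcinoma) tolerates *ADAR* KO, and its *GFP* control and ADAR1-deficient cells were each treated with vehicle or with IFN-β at 10 ng/mL for 24 h. This gave 20 libraries in 10 groups. The 2 libraries of a group carry different sgRNAs against the same target, called sg1 and sg2, and are not repeats of the experiment. Every standard error and edgeR p-value below rests on a spread between libraries that is estimated with information shared over genes. That spread is therefore not the spread of a gene's own 2 libraries. In fits by group it is a spread between the libraries of a group. The fit across the ADAR1-dependent lines assumes the same KO effect in all of them. There the spread also holds differences between lines in that effect.

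Most of the 9 genes act in or respond to the integrated stress response. In this pathway, kinases such as PKR phosphorylate the initiation factor eIF2α, protein synthesis falls, and a few mRNAs including that of *ATF4* are translated more, so that the amount of ATF4 protein can rise with little change in its mRNA. ATF4 is a basic leucine zipper (bZIP) factor that pairs with C/EBP proteins and activates *ATF3*, *DDIT3* (the factor CHOP), *TRIB3* and genes of amino acid metabolism. RNA-seq measures the mRNA of each gene and not the protein.

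Libraries held 62679 to 19520189 reads on genes, with a median of 6411279. NCI-H196 GFP sg2 was the shallowest, and a single read there was worth 14.7 CPM (reads scaled to a common library size by TMM). In HCC366 ADAR sg2, 85.6% of alignments were not unique and were not counted, against 22.5% to 59.1% in the other libraries. Values without these libraries are given where they differ from those with all libraries. *ADAR* mRNA was lower in ADAR than in GFP libraries by a log2 fold change of −1.29 in NCI-H1650, −0.41 in NCI-H196, −1.08 in vehicle-treated A549 and −0.60 in IFN-β-treated A549, each with an adjusted p under the threshold of 0.05. In HCC366 it was −0.84 (standard error, SE, 0.31), with an adjusted p of 0.208. Of the labelled tumour types, NCI-H196 had little epithelial keratin mRNA (5 epithelial markers summed to 58.6 to 72.2 CPM, against 2729 to 5664 CPM in the other lines). Its 6 neuroendocrine markers summed to 14.7 to 18.3 CPM, led by *NCAM1* at 15.1 CPM, against 2.51 to 21.4 CPM in the other lines. The 4 squamous markers summed to 1.55 to 2.29 CPM in HCC366 and 2.11 to 3.45 CPM in A549. They were higher in NCI-H196 (16.8 to 58.6 CPM) and NCI-H1650 (76.1 to 93.2 CPM), so they did not follow the adenosquamous label. Since these were bulk samples, a change in a minority of cells and a change in all cells cannot be told apart.

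Without *ADAR* KO or IFN-β, the 9 genes already differed between the lines in level. Per kilobase of annotated exon, *ATF4* was the highest of the 9 in both GFP libraries of A549, HCC366 and NCI-H1650, at 134 and 136 CPM per kb in A549, 95.0 and 115 in HCC366 and 105 and 105 in NCI-H1650. In NCI-H196 it was 142 CPM per kb in sg1 and 67.8 in sg2, where 15 reads carried the value and *CEBPB* stood above it at 77.0. *CEBPB*, a partner of ATF4 and a regulator of inflammatory genes, came second in the other libraries, at 81.0 and 83.7 CPM per kb in A549 and 49.0 and 53.9 in HCC366. The lowest were *CREB5*, a factor of the CRE-binding family, at 0.766 and 1.02 CPM per kb in A549, and *ATF3*, at 1.73 and 1.02. These overlapped in A549, so their order there is not set. *ATF3* was above *CREB5* in both libraries of NCI-H1650, at 27.1 and 20.2 CPM per kb against 0.721 and 0.521, and of HCC366, at 8.78 and 9.33 against 0.478 and 0.507. In NCI-H196 the values were closer, at 11.3 against 5.20 CPM per kb in sg1 and 2.95 against 2.02 in sg2, from 1 and 2 reads.

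*ATF3*, a bZIP factor induced by many stresses, and *DDIT3* were lower in A549 than in the other 3 lines. Relative to vehicle-treated A549, the log2 difference of *ATF3* in GFP libraries was 2.83 (SE 0.23) in HCC366, 4.20 (SE 0.19) in NCI-H1650 and 3.10 (SE 0.21) in NCI-H196, with edgeR adjusted p of 3.5e-26, 1.1e-59 and 3.3e-34. *DDIT3*, whose product CHOP can promote cell death, was higher in all 3 lines by 1.17 (SE 0.36), 1.80 (SE 0.28) and 2.60 (SE 0.28). *TRIB3*, a pseudokinase that binds ATF4 and CHOP, did not follow the same order: it was lower in HCC366 by a log2 difference of −1.87 (SE 0.17), higher in NCI-H196 by 1.32 (SE 0.14), and differed from A549 in NCI-H1650 by only −0.002 (SE 0.13, adjusted p = 0.995). *ATF4* itself was lower in HCC366 (−0.38, SE 0.14) and NCI-H1650 (−0.37, SE 0.13), and its difference was −0.04 (SE 0.15, adjusted p = 0.841) in NCI-H196. Between lines most genes differ: 32.1% of the 15964 genes tested were higher and 32.8% lower in HCC366, 33.9% and 34.4% in NCI-H1650, and 35.8% and 34.7% in NCI-H196. Of the 9 genes, 2 were higher and 6 lower in HCC366, 3 and 3 in NCI-H1650 and 4 and 1 in NCI-H196. The share lower was above that background in HCC366, near it in NCI-H1650 and below it in NCI-H196. With 9 genes these shares were not tested. Each line is a single line and A549 received vehicle, so differences of line and of treatment cannot be told apart. Without NCI-H196 GFP sg1, when the line is represented by 62679 reads, 1 gene, *ATF4* (−1.02, adjusted p = 0.0313), was called in place of 5. The *ATF3* difference in NCI-H196 was then 1.17 (SE 1.71, adjusted p = 0.766), that of *CREB5* 1.12, that of *TRIB3* 0.96 (adjusted p = 0.101) and that of *DDIT3* 2.62 (adjusted p = 0.227). DESeq2 called 3 of the 9 genes in HCC366 and 2 in NCI-H1650.

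**Figure D1:**
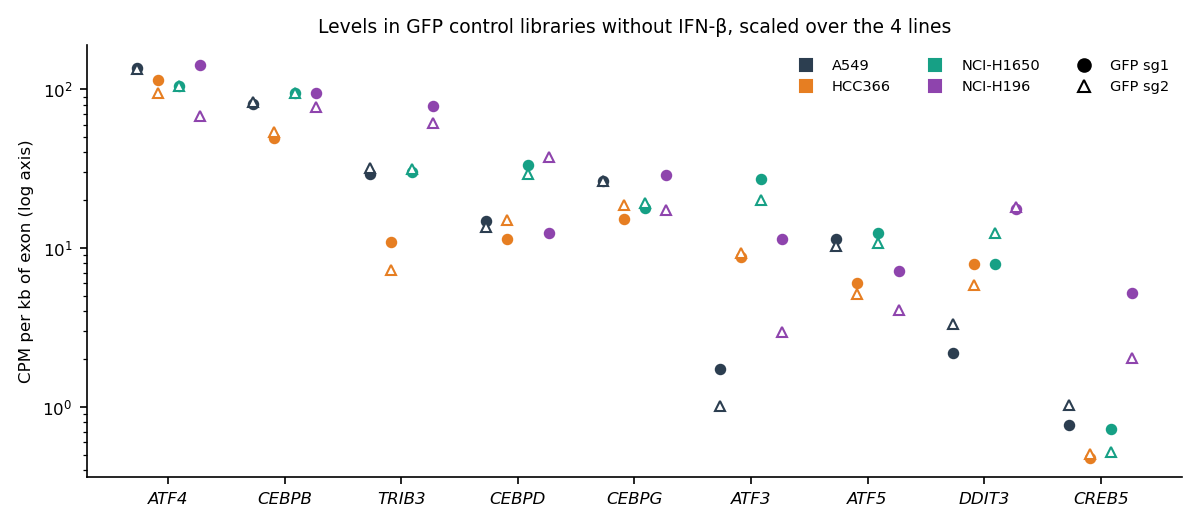
Levels of the 9 genes in the 8 GFP libraries without IFN-β, in CPM per kilobase of annotated exon on a log axis, scaled over the 4 lines. Each point is a library, coloured by line, with circles for sg1 and triangles for sg2. A549 points for *ATF3* and *DDIT3* lie below those of every other line, while *ATF4* lies between 67.8 and 142 CPM per kb in all 8 libraries.

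After *ADAR* KO, *ATF3*, *DDIT3*, *TRIB3* and *CREB5* rose in each of the ADAR1-dependent lines, and none of the 9 genes fell past the threshold in any of them. In NCI-H1650, 7 of the 9 passed the edgeR quasi-likelihood test and all 7 rose, where 6.18% of the 14530 genes tested rose and 2.42% fell. The median log2 fold change of the 9 was 0.70, against 0.01 over all genes, and DESeq2 called 4 of the 8 genes for which it gave an adjusted p. In NCI-H196, 8 rose, where 10.3% of 14094 genes rose and 7.5% fell, and the median of the 9 was 0.80. In HCC366, 4 rose, *ATF3*, *TRIB3*, *DDIT3* and *CREB5*, where 1.2% of 11135 genes rose and 0.0449% fell, and the median of the 9 was 2.50. In HCC366 both ADAR libraries stood above both GFP libraries for 8 of the 9 genes, which held for 25.1% of all genes tested. In a fit across the 3 lines, 6 of the 9 rose, where 4.28% of 16538 genes rose and 1.02% fell. These were *ATF3*, *DDIT3*, *CREB5*, *TRIB3*, *CEBPB* and *CEBPG*.

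Single libraries carry weight in these counts. A fit that leaves out 1 library of a line leaves 1 library in that group, assumed to vary like the others. A smaller p-value from such a fit is therefore not stronger evidence. In HCC366, 1 gene was called without GFP sg2 and 8 without ADAR sg1, and 6 without the doubted ADAR sg2. In NCI-H196, 8 were called without the shallow GFP sg2, but then the control is a single library, assumed to vary like the ADAR libraries. There, 0 were called by edgeR without GFP sg1, 4 without ADAR sg1 and 2 without ADAR sg2, and DESeq2 called 0 of the 4 genes for which it gave an adjusted p. At an unadjusted p under 0.05, edgeR found 8 of the 9 in NCI-H196 with all 4 libraries. With both doubted libraries left out of the fit across the 3 lines, 8 of the 9 rose.

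*ATF4* mRNA had smaller fold changes than *ATF3*, *DDIT3* or *TRIB3* in HCC366 and NCI-H1650, while in NCI-H196 the order of *ATF4*, *DDIT3* and *TRIB3* depended on the library used as control. In NCI-H1650 it was 287 and 291 CPM in GFP sg1 and sg2 and 332 and 345 CPM in ADAR sg1 and sg2. In HCC366 it was 291 and 240 CPM with *GFP* and 355 and 587 CPM with *ADAR*, and in NCI-H196 it was 394 and 220 CPM with *GFP* and 499 and 485 CPM with *ADAR*. The ADAR libraries were the higher in each line with no overlap, which held for 25.1% to 26.2% of genes tested in a line. The log2 fold change was only 0.23 (SE 0.10, adjusted p = 0.158) in NCI-H1650, 0.83 (SE 0.35, adjusted p = 0.255) in HCC366 and 0.36 (SE 0.11, adjusted p = 0.00776) in NCI-H196. The NCI-H196 call was lost without GFP sg1, ADAR sg1 or ADAR sg2 although the value rose, to 1.17 (adjusted p = 0.0824), 0.49 (adjusted p = 0.514) and 0.53 (adjusted p = 0.798). Without GFP sg1, *DDIT3* had 0.63 and *TRIB3* 0.95 there, below *ATF4*. The HCC366 value of *ATF4* was 0.45 without ADAR sg2 and 1.14 without ADAR sg1, each with 1 ADAR library left. Across the 3 lines the log2 fold change was 0.50 (SE 0.16, adjusted p = 0.0695). Without the 2 doubted libraries it was smaller, at 0.27, with an adjusted p of 0.0397, since the spread was smaller too. DESeq2 gave 0.55 with an adjusted p of 0.0236.

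*ATF3* had the largest fold change of the 9 genes in each of the 3 lines. In HCC366 it was 34.1 and 36.1 CPM in GFP sg1 and sg2 and 456 and 795 CPM in the ADAR libraries. In NCI-H1650 it was 114 and 85.7 CPM with *GFP* and 332 and 416 CPM with *ADAR*. In NCI-H196 it was 48.2 CPM in GFP sg1 and 14.7 CPM (1 read) in GFP sg2, against 134 and 144 CPM in the ADAR libraries. The groups did not overlap in any line. The log2 fold change was 4.15 (SE 0.40, adjusted p = 0.0221) in HCC366, 1.90 (SE 0.12, adjusted p = 3.6e-18) in NCI-H1650 and 1.57 (SE 0.12, adjusted p = 5.0e-35) in NCI-H196. Across the 3 lines it was 2.51 (SE 0.32, adjusted p = 1.4e-04). It stayed between 2.20 and 2.92 with NCI-H196 GFP sg1, NCI-H196 GFP sg2 or HCC366 ADAR sg2 left out. In HCC366 it was 3.70 without ADAR sg2, which left 1 ADAR library. Without NCI-H196 GFP sg1 the value in that line alone was 3.28 with an adjusted p of 0.0828.

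*DDIT3* rose by less than *ATF3* in each line by the fitted value. In HCC366 it was 10.1 and 7.45 CPM with *GFP* and 52.5 and 153 CPM with *ADAR*. In NCI-H1650 the GFP libraries had 10.8 and 17.2 CPM and the ADAR libraries 27.3 and 28.8 CPM. In NCI-H196 the GFP libraries had 24.5 and 29.3 CPM, the latter from 2 reads, and the ADAR libraries 37.6 and 46.8 CPM. The log2 fold changes were 3.60 (SE 0.57, adjusted p = 0.0307), 1.01 (SE 0.19, adjusted p = 1.3e-04) and 0.87 (SE 0.17, adjusted p = 6.4e-06), and 1.66 (SE 0.36, adjusted p = 0.0115) across the 3 lines. Without HCC366 ADAR sg2 they were 2.68 in HCC366 and 1.19 (adjusted p = 1.2e-06) across the lines. The HCC366 call was lost without GFP sg2, the NCI-H1650 call without GFP sg1, and the NCI-H196 call without GFP sg1 or ADAR sg2. Exons of *DDIT3* share 355 bases with *MARS1*, a methionyl-tRNA synthetase gene on the opposite strand, and 58 bases with *MBD6*. Whether reads were counted by strand is not given in the sources used here. *MARS1* had up to 7022 reads in a library, against up to 684 for *DDIT3*. *MARS1* rose across the 3 lines by a log2 fold change of 0.58 (SE 0.13, adjusted p = 0.0129), and *MBD6* had 0.32 (SE 0.17, adjusted p = 0.256). Both were called with *ADAR* KO in NCI-H196 (0.53 and 0.68) and in IFN-β-treated A549 (0.28, SE 0.10, and 0.65, SE 0.15). In NCI-H1650 only *MARS1* was called (0.37), and in HCC366 and vehicle-treated A549 neither *MARS1* nor *MBD6* was. Their part in the *DDIT3* value was not tested.

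**Figure D2:**
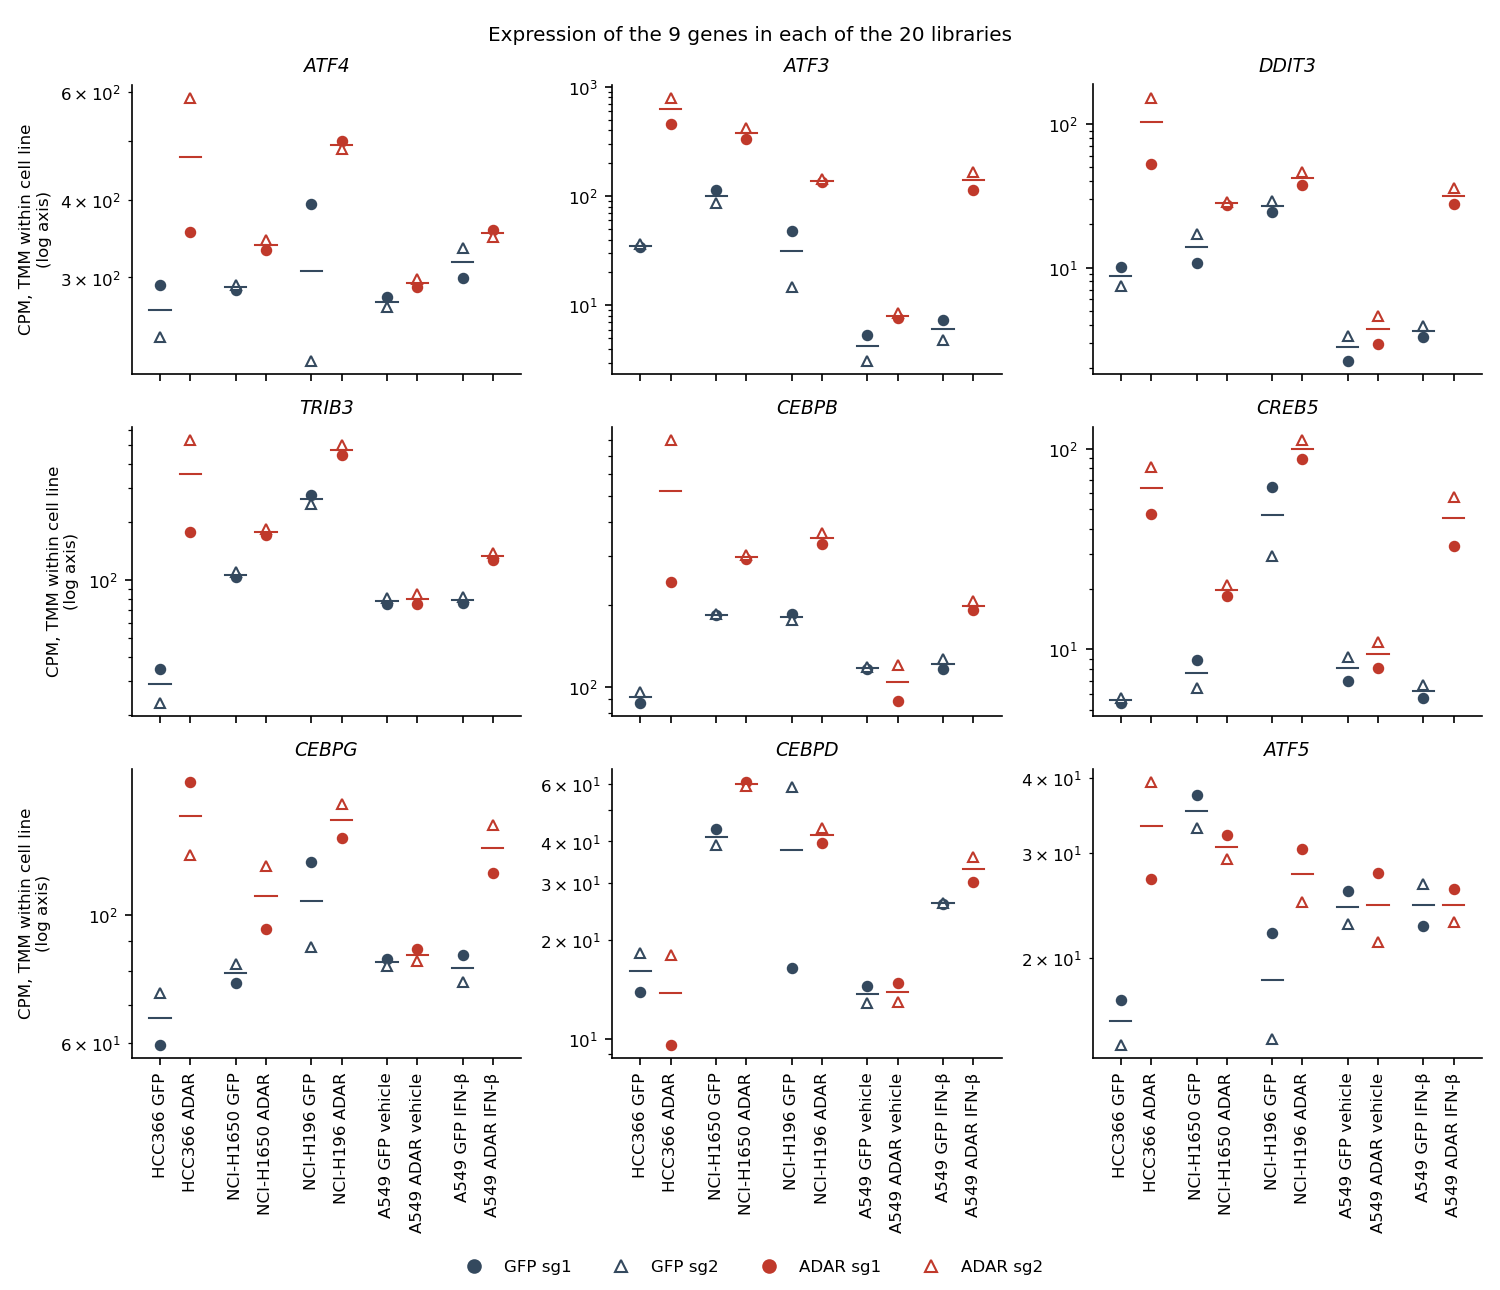
Expression of each of the 9 genes in the 20 libraries, in CPM scaled by TMM within each cell line, on log axes that differ between panels. Points are libraries (circles sg1, triangles sg2, blue for *GFP*, red for *ADAR*) and lines are group means. *ATF3*, *DDIT3* and *CREB5* separate ADAR from GFP libraries in HCC366 and in IFN-β-treated A549, *ATF4* much less, and *ATF5* does not do so in A549.

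*ATF3*, *DDIT3* and *TRIB3* were also set against *ATF4* within the same library, where depth and scaling cancel. These ratios restate the libraries above on another scale and are not independent of the fold changes. The log2 ratio of *ATF3* to *ATF4* CPM was −3.06 and −2.70 in the HCC366 GFP libraries and 0.36 and 0.44 in the ADAR libraries. In NCI-H1650 it went from −1.33 and −1.76 to −0.002 and 0.27, and in NCI-H196 from −3.02 and −3.87 to −1.89 and −1.75. The ADAR libraries were above the GFP libraries in all 3 lines. The mean difference over the lines was 2.19 on the log2 scale, with the ADAR library higher in 6 of 6 same-numbered pairs (exact permutation test, two-sided, with labels exchanged inside each line, p = 0.00926, the smallest that 216 assignments allow, adjusted p = 0.0278 over the 3 ratios tested). The pairs share a number only, since *GFP* and *ADAR* sgRNAs differ, and the test did not use them.

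For *TRIB3* the ratio to *ATF4* rose by 1.07 on the log2 scale, higher in 5 of 6 pairs (exact permutation p = 0.0278, adjusted p = 0.0417), and for *DDIT3* by 1.04, higher in 5 of 6 pairs (exact permutation p = 0.0648, adjusted p = 0.0648). Most of both came from HCC366, at 2.60 for *TRIB3* and 2.44 for *DDIT3*. In NCI-H1650 they were 0.50 and 0.79. In NCI-H196 the GFP and ADAR libraries overlapped for both, at 0.10 and −0.10. The *TRIB3* call was lost without NCI-H196 GFP sg1 (0.95, adjusted p = 0.139), without NCI-H196 ADAR sg2 (1.03, adjusted p = 0.111), and without any 1 of the 4 NCI-H1650 libraries (1.06 to 1.08). With the shallow NCI-H196 GFP sg2 left out, the *DDIT3* ratio rose by 1.22 with an adjusted p of 0.0185.

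**Figure D3:**
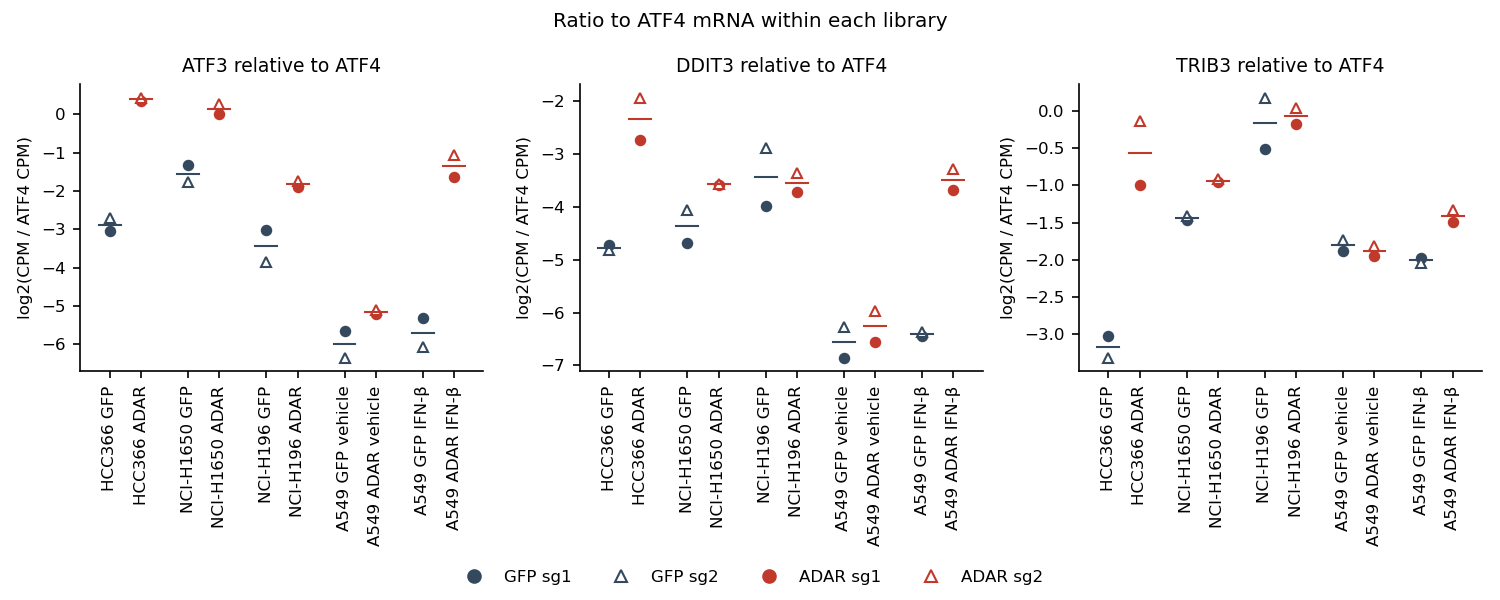
Log2 ratio of the CPM of *ATF3*, *DDIT3* and *TRIB3* to that of *ATF4* in the same library (prior count 2), by group. Points are libraries and lines group means. The *ATF3* ratio is higher in ADAR than in GFP libraries in all 3 ADAR1-dependent lines and, in A549, climbs from about −6 to near −1 with *ADAR* KO plus IFN-β, while the *TRIB3* and *DDIT3* ratios overlap in NCI-H196.

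To show the regulatory sequence of *ATF3* and *DDIT3* beside their values, the 500 bases upstream of each gene's canonical transcript start (GENCODE annotation, GRCh37) were searched on both strands for TGATGNAA, the letters of the C/EBP-ATF response element that ATF4 with a C/EBP partner binds. Only *ATF3* and *DDIT3* of the 9 genes held it, and 4.76% of 19894 protein-coding promoters of the same length did. The AP-1 letters TGANTCA were in *ATF4*, *ATF5* and *DDIT3* (9.68% of promoters) and the CRE letters TGACGTNA in *ATF3* (4.64%). None of the 3 was in the windows of *TRIB3*, *CEBPB*, *CEBPG*, *CEBPD* or *CREB5*. A match is a description of the letters and not a binding site. The matches in *ATF3* and *DDIT3* are shown on the gene's strand, 5′ to 3′, with the motif in capitals.
*ATF3*, 203 bases upstream, chr1:212781889-212781918, plus strand: cctccccgaacTTGCATCAccagtgccccc
*ATF3*, 21 bases upstream, chr1:212782071-212782100, plus strand: tataaaaggggTGATGCAAcgctctccaag
*ATF3*, CRE letters 90 bases upstream, chr1:212782002-212782031, plus strand: tattaatagcaTTACGTCAgcctgggactg
*DDIT3*, 306 bases upstream, chr12:57914585-57914614, minus strand: gttgccaaacaTTGCATCAtccccgccccc
*DDIT3*, AP-1 letters 241 bases upstream, chr12:57914521-57914549, minus strand: gcgcgcgcgcaTGACTCAcccacctcctc
The *ATF3* stretches shown for 21 and 90 bases, with their flanking bases, overlap an exon of another annotated *ATF3* transcript. Whether the motif itself lies in that exon was not examined. In GRCh37, *ATF3* (ENSG00000162772) lies on the plus strand of chromosome 1 from 212738676 to 212794119, and *DDIT3* (ENSG00000175197) on the minus strand of chromosome 12 from 57910371 to 57915520. *ATF4* (ENSG00000128272) lies on chromosome 22 from 39915700 to 39918688. The canonical *ATF3* and *DDIT3* transcripts have 4 exons each and that of *ATF4* has 3, and the counts sum all transcripts of a gene.

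*TRIB3* responded unevenly. In HCC366 it was 34.9 and 23.2 CPM with *GFP* and 178 and 533 CPM with *ADAR*, the larger value in the library with few unique alignments. In NCI-H1650 it rose from 104 and 110 to 171 and 183 CPM, and in NCI-H196 from 276 and 249 to 443 and 499 CPM. The groups were apart in every line, as upward for 25.1% to 26.2% of genes tested in a line. The log2 fold changes were 3.64 (SE 0.56, adjusted p = 0.0273), 0.73 (SE 0.11, adjusted p = 1.3e-06) and 0.80 (SE 0.11, adjusted p = 1.4e-11). Across the 3 lines it was 1.60 (SE 0.38, adjusted p = 0.0193), and the call was lost without HCC366 GFP sg1. Without HCC366 ADAR sg2 it was 1.11 (adjusted p = 4.7e-07) across the lines and 2.72 in HCC366, where the call was lost without GFP sg2. The NCI-H196 call was lost without GFP sg1 (0.95, adjusted p = 0.161), ADAR sg1 (0.90, adjusted p = 0.0711) or ADAR sg2 (0.72, adjusted p = 0.498), and with DESeq2 (0.80, adjusted p = 0.277).

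*CEBPB* and *CEBPG* encode C/EBP proteins that pair with ATF4, and CEBPG has no activation domain of its own. *CEBPB* was 87.5 and 96.0 CPM in the HCC366 GFP libraries and 242 and 800 CPM in the ADAR libraries, a log2 fold change of 2.50 (SE 0.52) whose adjusted p was 0.0633. Without ADAR sg2 the estimate became 1.41, with 1 ADAR library left. In NCI-H1650 *CEBPB* went from 183 and 185 to 294 and 303 CPM, a log2 fold change of 0.70 (SE 0.10, adjusted p = 1.1e-06). In NCI-H196 it was 185 and 176 CPM with *GFP* and 334 and 364 CPM with *ADAR* (0.94, SE 0.11, adjusted p = 3.2e-16), a call lost without GFP sg1 (1.02, adjusted p = 0.278) or ADAR sg2 (0.87, adjusted p = 0.260) and with DESeq2 (0.93, adjusted p = 0.250). Across the lines it rose by 1.35 (SE 0.28, adjusted p = 0.00903), and by 0.90 (adjusted p = 1.0e-08) without HCC366 ADAR sg2. *CEBPG* moved less, by 0.61 (SE 0.16, adjusted p = 0.0351) across the lines, and that call was lost in 8 of 12 fits that left out a library. By line its log2 fold change was 1.15 (SE 0.35, adjusted p = 0.153) in HCC366, 0.44 (SE 0.12, adjusted p = 0.0114) in NCI-H1650, a call lost in 3 of 4 fits without a library, and 0.29 (SE 0.11, adjusted p = 0.0345) in NCI-H196. The latter was called in 1 of 4 fits without a library, with values of 0.20 to 0.79, and neither without a filter on low counts nor with DESeq2.

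*CREB5* rose nearly as much as *DDIT3*. It was 5.42 and 5.73 CPM in the HCC366 GFP libraries and 47.2 and 80.8 CPM in the ADAR libraries. In NCI-H1650 it went from 8.82 and 6.45 to 18.4 and 20.9 CPM. In NCI-H196 it was 64.6 CPM in GFP sg1 and 29.3 CPM (2 reads) in GFP sg2, against 89.3 and 111 CPM with *ADAR*. The log2 fold changes were 3.50 (SE 0.45, adjusted p = 0.0272), 1.35 (SE 0.22, adjusted p = 1.5e-05) and 0.73 (SE 0.12, adjusted p = 1.2e-07), and 1.63 (SE 0.31, adjusted p = 0.00463) across the lines. Without HCC366 ADAR sg2 they were 3.07 in HCC366 and 1.21 (adjusted p = 2.5e-06) across the lines. The HCC366 call was lost without GFP sg1 or without GFP sg2, and the NCI-H196 call without GFP sg1, ADAR sg1 or ADAR sg2.

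*CEBPD* and *ATF5* did not share this pattern. *CEBPD*, a C/EBP gene that responds to cytokines, was 13.9 and 18.3 CPM in HCC366 GFP libraries and 9.62 and 18.1 CPM in ADAR libraries, which overlapped (log2 fold change −0.22, SE 0.45, adjusted p = 0.818). In NCI-H1650 it rose from 43.7 and 38.9 to 60.7 and 58.9 CPM (0.53, SE 0.13, adjusted p = 0.00593), a call lost without GFP sg2. In NCI-H196 its 1.35 (SE 0.18, adjusted p = 1.2e-11) rested on GFP sg1 at 16.5 CPM: GFP sg2, with 4 reads, stood at 58.6 CPM above both ADAR libraries at 39.6 and 43.9 CPM, and without GFP sg1 the value turned to −0.43 (adjusted p = 0.881). *ATF5*, whose mRNA is translated in the same stress-dependent way as that of *ATF4*, had log2 fold changes of 1.11 (SE 0.40, adjusted p = 0.202) in HCC366, −0.20 (SE 0.15, adjusted p = 0.492) in NCI-H1650 and 0.23 (SE 0.19, adjusted p = 0.456) in NCI-H196. Exons of *ATF5* share 565 bases with *NUP62* on the opposite strand, which had more reads, and whose log2 fold change across the lines was 0.02 (SE 0.12, adjusted p = 0.950). They share 75 bases with *IL4I1*, also on the opposite strand, which rose across the lines by 1.16 (SE 0.30, adjusted p = 0.0309) and with IFN-β in *GFP* control A549 by 5.35 (SE 0.56). The part of either gene in the *ATF5* value was not tested.

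Whether the response differed among the 3 lines was tested directly. The effect of *ADAR* KO differed for 4 of the 9 genes, *ATF3* and *TRIB3* (adjusted p = 0.00662 each), *CREB5* (adjusted p = 0.0129) and *DDIT3* (adjusted p = 0.0230), where 0.701% of 16538 genes did. In each of the 4, HCC366 had the largest fold change. The count was 0 without HCC366 GFP sg2 or without NCI-H196 GFP sg1, 2 without HCC366 GFP sg1 and 8 without HCC366 ADAR sg1. With all libraries, 7 of the 9 had an unadjusted p under 0.05, and DESeq2 also called 4. With both doubted libraries left out, 6 were called.

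In A549, *ADAR* KO with vehicle moved none of the 9 genes past the threshold in edgeR or DESeq2, where 0.0324% of 15449 genes rose and 0.0906% fell. Here 1 gene, *ATF3*, had an unadjusted p under 0.05. *ATF3* was 5.41 and 3.12 CPM in the GFP libraries and 7.68 and 8.44 CPM in the ADAR libraries, which did not overlap, at a log2 fold change of 1.02 (SE 0.27, adjusted p = 0.363). Without a filter on low counts the adjusted p of *ATF3* was 0.0146. *ATF4* was the other gene with no overlap, at 278 and 268 CPM against 290 and 298 CPM, so 2 of 9 genes stood apart, where 18.8% of all genes did in that direction. *DDIT3* was 2.24 and 3.32 CPM with *GFP* and 2.93 and 4.58 CPM with *ADAR*, and *TRIB3* was 75.3 and 80.9 against 74.9 and 84.6 CPM. Both pairs of groups overlapped.

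**Figure D4:**
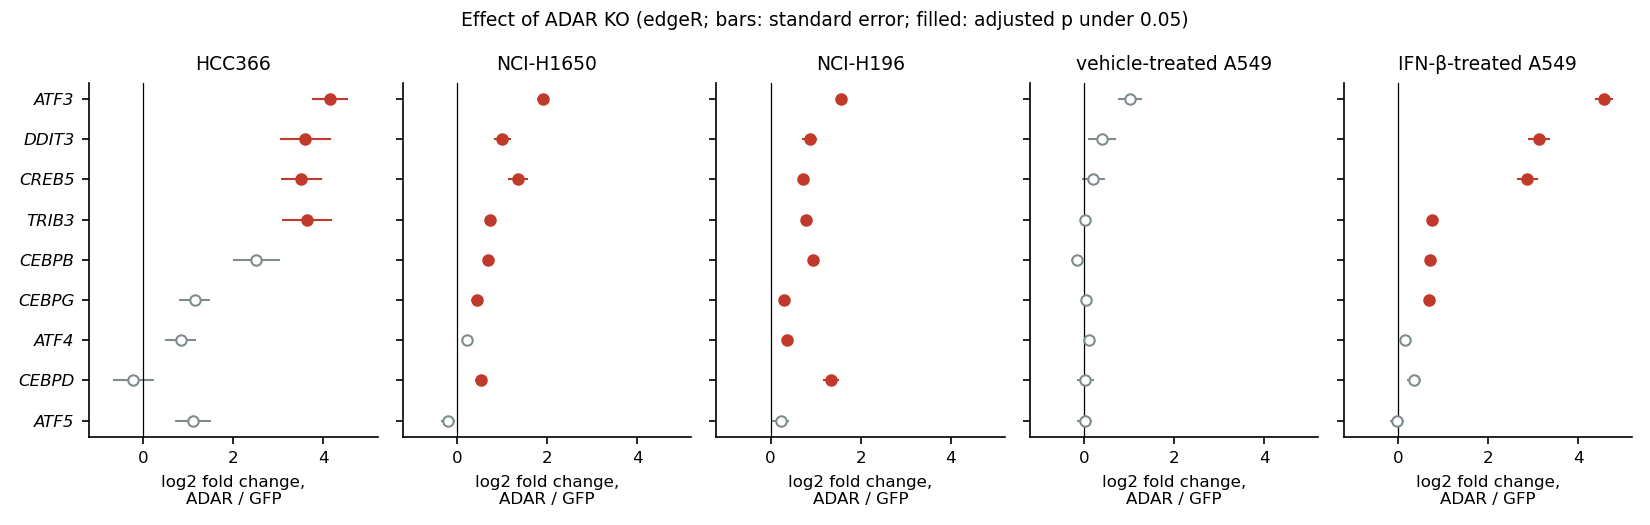
Log2 fold change of each of the 9 genes between ADAR and GFP libraries in the 5 settings, from edgeR, with bars of 1 standard error and filled points where the adjusted p was under 0.05. All filled points lie to the right of 0, up to 4.57 for *ATF3* in IFN-β-treated A549, while *CEBPD* in HCC366 and *ATF5* in NCI-H1650 lie to the left, unfilled, and in vehicle-treated A549 no point is filled.

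The mean effect of *ADAR* KO in the 3 ADAR1-dependent lines was larger than that in vehicle-treated A549 for 4 of the 9 genes, where 0.814% of 19523 genes were higher in this test and 0.138% lower. A549 is a single line and received vehicle, so line, treatment and ADAR1 dependency cannot be told apart in this test. The log2 difference was 1.71 (SE 0.30, adjusted p = 0.00302) for *TRIB3*, 1.65 (SE 0.34, adjusted p = 0.0122) for *CREB5*, 1.53 (SE 0.37, adjusted p = 0.0361) for *ATF3* and 1.53 (SE 0.31, adjusted p = 0.00981) for *CEBPB*. *DDIT3* had 1.44 (SE 0.45, adjusted p = 0.122) and *ATF4* 0.40 (SE 0.23, adjusted p = 0.452). The *ATF3* call was lost in 10 of 20 fits that left out a library. The count was 1 without A549 GFP vehicle sg2, 0 without A549 ADAR vehicle sg1, and 5 without both doubted libraries. At an unadjusted p under 0.05 it was 6, and DESeq2 called 4.

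With IFN-β, ADAR1-deficient A549 cells changed 6 of the 9 genes, all upward, where 10.8% of 15449 genes rose and 6.19% fell. *ATF3* was 7.41 and 4.78 CPM in the IFN-β-treated GFP libraries and 115 and 167 CPM in the ADAR libraries, a log2 fold change of 4.57 (SE 0.20, adjusted p = 1.6e-16). *DDIT3* went from 3.28 and 3.91 to 27.9 and 35.6 CPM, a log2 fold change of 3.13 (SE 0.24, adjusted p = 4.2e-11). *CREB5* went from 5.72 and 6.64 to 32.9 and 57.8 CPM, a log2 fold change of 2.88 (SE 0.23, adjusted p = 9.8e-11). None of these groups overlapped, which held in the upward direction for 28.2% of all genes tested. The 3 rises were far above those of the remaining genes of the 9. *TRIB3* went from 76.2 and 81.6 to 128 and 138 CPM (0.75, SE 0.11, adjusted p = 6.4e-06), *CEBPB* from 116 and 127 to 190 and 206 CPM (0.71, SE 0.11, adjusted p = 3.8e-05) and *CEBPG* from 85.4 and 76.4 to 118 and 143 CPM (0.70, SE 0.11, adjusted p = 3.4e-05). *ATF4* was 300 and 335 CPM with *GFP* and 359 and 349 CPM with *ADAR* (0.16, SE 0.09, adjusted p = 0.273). *CEBPD* had 0.36 (SE 0.16, adjusted p = 0.117) and *ATF5* −0.02 (SE 0.16, adjusted p = 0.958). DESeq2 called the same 6 genes, and no edgeR call was lost when an A549 library was left out. In an edgeR fit of all 20 libraries, *CEBPB* (0.67, adjusted p = 0.133) and *TRIB3* (0.71, adjusted p = 0.0875) did not pass.

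The log2 ratio of *ATF3* to *ATF4* in A549 was −5.64 and −6.35 with *GFP* and vehicle, −5.21 and −5.11 with *ADAR* and vehicle, −5.31 and −6.08 with *GFP* and IFN-β, and −1.64 and −1.07 with both. The ratio for *DDIT3* was 2.92 higher with *ADAR* than with *GFP* under IFN-β and 0.30 higher under vehicle. That for *TRIB3* was 0.59 higher under IFN-β and −0.08 under vehicle. With 2 libraries per group in 1 line, these differences were not tested.

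IFN-β by itself left 8 of the 9 genes below the threshold in *GFP* control A549 cells, where 4.39% of genes rose and 1.31% fell. *CEBPD* was the exception, from 14.5 and 12.9 CPM with vehicle to 25.9 and 26.0 CPM with IFN-β (log2 fold change 0.93, SE 0.17, adjusted p = 2.6e-04). Without A549 GFP IFN-β sg1, *ATF4* was called too (0.30, adjusted p = 0.0481). In ADAR1-deficient cells IFN-β raised 8 of the 9, all but *ATF5*, where 15.5% of genes rose and 9.04% fell. The log2 fold changes there were 4.12 (SE 0.20) for *ATF3*, 3.07 (SE 0.25) for *DDIT3*, 2.26 (SE 0.23) for *CREB5*, 1.25 (SE 0.17) for *CEBPD*, 0.92 (SE 0.12) for *CEBPB*, 0.74 (SE 0.11) for *TRIB3*, 0.62 (SE 0.11) for *CEBPG* and 0.27 (SE 0.10) for *ATF4*. The *ATF4* call, with an adjusted p of 0.0375, was lost in 6 of 8 fits that left out a library and with a replicate block by sgRNA, in which cells with 1 sgRNA are compared with and without IFN-β (adjusted p = 0.0653). The other 7 calls held in that block.

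The interaction of *ADAR* KO and IFN-β passed the test for 6 of the 9 genes, where 4.07% of genes were higher and 0.977% lower. It was 3.55 (SE 0.35, adjusted p = 3.9e-08) for *ATF3*, 2.74 (SE 0.40, adjusted p = 2.6e-05) for *DDIT3* and 2.67 (SE 0.34, adjusted p = 4.0e-06) for *CREB5* on the log2 scale. For *CEBPB* it was 0.87 (SE 0.16), for *TRIB3* 0.73 (SE 0.15) and for *CEBPG* 0.66 (SE 0.16). *CEBPD* rose with IFN-β in both kinds of cells, and its interaction of 0.33 (SE 0.24, adjusted p = 0.507) did not pass. For *ATF4* the interaction was 0.05 (SE 0.13, adjusted p = 0.888). The *CEBPG* call was lost without A549 GFP vehicle sg1 (0.64), GFP vehicle sg2 (0.68), ADAR vehicle sg2 (0.62) or ADAR IFN-β sg2 (0.51). That of *TRIB3* was lost without GFP vehicle sg2 (0.67) or ADAR vehicle sg1 (0.65). In an edgeR fit of all 20 libraries, *CEBPB* (0.83, adjusted p = 0.423), *CEBPG* (0.61, adjusted p = 0.406) and *TRIB3* (0.69, adjusted p = 0.513) did not pass.

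Other genes of the pathway were counted from lists, which were also chosen with earlier results of these data known. Of 42 genes known as targets of ATF4 or CHOP, 41 were tested across the 3 ADAR1-dependent lines, and 21 rose and 0 fell, with a median log2 fold change of 0.60 against −0.01 over all genes, of which 4.28% rose and 1.02% fell. The largest rises were in *PPP1R15A* (2.10, SE 0.41), the phosphatase subunit that reverses eIF2α phosphorylation, *SESN2* (1.94, SE 0.39), a stress-induced sensor upstream of mTORC1, *BBC3* (1.72, SE 0.22), which encodes the apoptosis factor PUMA, and *INHBE* (1.51, SE 0.33), an inhibin subunit. In fits of a single line, *INHBE* passed the filter on low counts only in NCI-H196 (1.53, SE 0.13), the line with the shallowest library. In that line alone, 26 of 41 list members rose and 2 fell, where 10.3% of all genes rose and 7.5% fell. In HCC366 and NCI-H1650, 0 fell. In vehicle-treated A549, edgeR called 0 of 39 list members, with a median of 0.04. With IFN-β, *ADAR* KO raised 19 of the 39, where 10.8% of all genes rose, led by *CHAC1* (3.64, SE 0.31), which degrades glutathione, *PPP1R15A* (2.99, SE 0.13), *SESN2* (2.65, SE 0.20) and *ADM2* (2.16, SE 0.44).

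Among 7 genes for eIF2α, its kinases and its phosphatase subunits, *PPP1R15A* and *PPP1R15B* (0.51, SE 0.14) rose across the lines and none fell. In NCI-H196 alone, 2 of the 7 rose and 2 fell, where 10.3% of all genes rose and 7.5% fell. In IFN-β-treated A549, *PPP1R15B* rose by 0.96 (SE 0.11). *EIF2AK2*, which encodes the kinase PKR, had a log2 fold change of −0.39 (SE 0.17) across the lines and −0.01 (SE 0.10) in IFN-β-treated A549, and neither passed. *FOS*, *JUN* and *MAF* family genes, whose products pair with ATF3 or share its AP-1 sites, moved in the same libraries: 9 of 10 rose across the lines with a median of 1.25, against 4.28% of all genes, led by *FOS* (2.23, SE 0.27), *FOSB* (1.89, SE 0.27), *MAFF* (1.88, SE 0.32) and *JUN* (1.64, SE 0.25). With IFN-β in A549, 8 of the 10 rose with *ADAR* KO, against 10.8% of all genes, with *FOSB* at 4.98 (SE 0.28), *FOS* at 3.62 (SE 0.29), *MAFF* at 2.82 (SE 0.20) and *JUN* at 1.89 (SE 0.12). Of the remaining ATF, CREB, C/EBP and related bZIP genes, 5 of 23 tested rose across the lines, with a median of 0.20, where 4.28% of all genes rose. Those named by rule were *HLF* (1.84, SE 0.49), *XBP1* (1.00, SE 0.15), *NFIL3* (0.90, SE 0.17) and *TEF* (0.86, SE 0.23). *HLF* did not pass the filter on low counts in the fit of any ADAR1-dependent line alone. *XBP1* is a factor of the unfolded protein response, and *HLF*, *TEF* and *NFIL3* bind D-box sites of circadian genes. In IFN-β-treated A549, 11 of 22 of these rose with *ADAR* KO, where 10.8% of all genes rose, led by *NFIL3* (1.59, SE 0.17), *TEF* (1.16, SE 0.33), *XBP1* (0.97, SE 0.11) and *CREBRF* (0.91, SE 0.28). *PPP1R15A* belongs to both of the first lists.

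Over the 20 libraries, with each gene's log2 CPM centred within its cell line, *ATF3* varied most closely with *CREB5* (Pearson r = 0.957) and *DDIT3* (r = 0.925) among the 9 genes, less with *CEBPG* (r = 0.894) and *ATF4* (r = 0.746), and least with *CEBPD* (r = 0.369). *CEBPB* was closest to *TRIB3* (r = 0.960), and *DDIT3* had r = 0.661 with *ATF4* (0.778 without the shallow NCI-H196 GFP sg2). Among 10426 genes with a mean of at least 10 CPM, those most like *ATF3* were *TSC22D3* (r = 0.982), *SPRY2* (r = 0.975), *GADD45A* (r = 0.972), *CSRNP1* (r = 0.972) and *ZNF697* (r = 0.971). Those most like *DDIT3* were *GADD45B* (r = 0.972), *KDM6B* (r = 0.971), *PPP1R15A* (r = 0.964), *MAFF* (r = 0.960) and *YY1AP1* (r = 0.959). For *ATF4* they were *ZNF622* (r = 0.983), *PIM3* (r = 0.975), *METTL25B* (r = 0.973), *STK11IP* (r = 0.971) and *POLG* (r = 0.966), and for *TRIB3* *YARS1* (r = 0.976), *FLCN* (r = 0.974), *AEN* (r = 0.972), *PLEKHM1* (r = 0.971) and *FAM83G* (r = 0.970). No gene stood among the 5 nearest of more than 1 of these 4. These correlations describe 20 libraries that share lines, treatments and depth, and carry no test.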

How the data were processed

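Total RNA without ribosomal RNA was made into directional libraries by the authors, who aligned the read pairs with STAR (hg19) and used HTSeq for gene counts. Versions, annotation release and strand setting are not given in the sources used here. The deposited values are raw counts, without normalization. HTSeq's summary lines were left out: reads on no feature came to 6.62% to 23.3% and alignments that were not unique to 22.5% to 85.6%. Symbols were matched for 55727 of 58233 identifiers. Positions, exon lengths and promoter windows came from a GENCODE annotation of GRCh37.

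The software was edgeR 4.0.16, limma 3.58.1 and DESeq2 1.42.0 under R 4.3.3. The main test was the quasi-likelihood F-test of edgeR with TMM scaling, filterByExpr by group and Benjamini-Hochberg adjustment over all genes tested (threshold 0.05), in a fit for each ADAR1-dependent line, 1 for A549, 1 across the 3 lines with the line as covariate, 1 for all 20 libraries and 1 for the 8 GFP libraries without IFN-β. CPM used TMM within each line. Ratios and correlations used log2 CPM with a prior count of 2. The code was tested on simulated data. Alternatives were DESeq2 size factors, no filter, DESeq2, each library left out, replicate blocks, offsets for GC content and length, and a fit of all 20 libraries. A crossed block and leaving out 2 doubted libraries were chosen after seeing the data.

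In A549 the sgRNA pairs vehicle and IFN-β libraries, since both came from the same engineered cells. Across genes, deviations from the group mean correlated between such libraries at −0.174 with *GFP* and 0.0261 with *ADAR*. Elsewhere the sgRNA numbers name different sgRNAs.

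All 9 members, *ADAR* and *EIF2AK2* were named in every fit. From each list up to 4 called genes with the largest rise and 2 with the largest fall were named in the fit across lines and in IFN-β-treated A549, and the 5 nearest genes by correlation for *ATF3*, *DDIT3*, *ATF4* and *TRIB3*. The members and lists were chosen with earlier results of these data known. Precision follows depth. The edgeR p-values rest on the spread between libraries with different sgRNAs, estimated with information shared over genes. That spread may be technical. In the fit across lines, with the line as covariate, the p-values also rest on differences between lines in the effect of *ADAR* KO. In the GFP libraries, the 4 immune markers summed to at most 8.31 CPM, endothelial markers summed to at most 2.32 CPM, and fibroblast markers to 21.5 to 105 CPM, but to 2232 to 2976 CPM in NCI-H196, led by *COL1A1*.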

Additional observations from a re-analysis of the deposited data

Results flagged for a closer look

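Between vehicle and IFN-β in A549, the effect of *ADAR* KO differed by the interaction test for 6 of the 9 genes. The difference in log2 fold change was 3.55 for *ATF3*, 2.74 for *DDIT3*, 2.67 for *CREB5*, 0.87 for *CEBPB*, 0.73 for *TRIB3* and 0.66 for *CEBPG*, each larger with IFN-β. The calls of *CEBPB*, *TRIB3* and *CEBPG* were lost in a fit of all 20 libraries. Between the mean of the ADAR1-dependent lines and vehicle-treated A549 the effect differed for *TRIB3* (1.71), *CREB5* (1.65), *ATF3* (1.53) and *CEBPB* (1.53), each larger in the dependent lines. A549 is a single line, so line and dependency cannot be told apart there. Among the 3 dependent lines the effect of *ADAR* KO differed for *ATF3* (edgeR adjusted p = 0.00662), *TRIB3* (adjusted p = 0.00662), *CREB5* (adjusted p = 0.0129) and *DDIT3* (adjusted p = 0.0230). Each was largest in HCC366, where 1 ADAR library had few unique alignments and the *ADAR* mRNA itself did not pass the test. GC content and transcript length also accounted for much of the variance over genes in 2 HCC366 libraries, taken relative to the mean of the line. Their share was 51.8% in ADAR sg2 and 35.5% in GFP sg2, against at most 16.5% in any other library of the 4 lines.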

How the results depend on the processing

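The number of the 9 genes called changed by over 1.5 times in these cases. In a fit of all 20 libraries it was 8 in HCC366, 3 for the interaction, and 2 each in NCI-H1650 and NCI-H196. With DESeq2 it was 4 in NCI-H1650, 0 in NCI-H196, 3 for GFP in HCC366 and 2 for GFP in NCI-H1650 against A549. Without a filter it was 1 in vehicle-treated A549. With a replicate block by sgRNA number it was 2 in NCI-H196, and the adjusted p of the *ATF3* (2.19) and *TRIB3* (1.07) ratios to *ATF4* rose to 0.0938. That permutation exchanged labels only within same-numbered pairs, which leaves fewer assignments. The *ATF3* ratio was higher in 6 of 6 pairs, so its unadjusted p was the smallest that this block allows. The sgRNA numbers were shared by number alone (correlations of deviations −0.283 to −0.000561), and a crossed block called 6 genes in HCC366 and 7 in NCI-H1650. Apart from this limit on the *ATF3* ratio, the cause of these changes was not tested.

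Leaving out 1 library gave 0 to 8 called genes in NCI-H196, 1 to 8 in HCC366, 5 to 7 in NCI-H1650, 0 in vehicle-treated and 6 in IFN-β-treated A549, 1 to 2 for IFN-β in GFP cells, 7 to 8 in ADAR1-deficient cells, 4 to 6 for the interaction, 4 to 8 across the lines, 0 to 5 for these lines against A549 and 0 to 8 for differences among lines. For GFP against A549 it was 6 to 8 in HCC366, 4 to 6 in NCI-H1650 and 1 to 5 in NCI-H196. The ratio differences ranged from 2.05 to 2.33 for *ATF3*, 0.857 to 1.22 for *DDIT3* and 0.927 to 1.21 for *TRIB3*. *CEBPD* in NCI-H196 ranged from −0.43, a reversal without GFP sg1, to 1.38. Offsets for GC content and length changed 2 of 18 member results in HCC366 and across the lines. Both were calls gained in HCC366, for *CEBPB* (1.70, edgeR adjusted p = 0.00189) and *CEBPG* (1.47, adjusted p = 0.00182). Over all genes, NCI-H196 had 2513 calls but 11 with DESeq2, and NCI-H1650 had 1250 but 159 in the fit of all 20 libraries. HCC366 had 139 but 3701 in that fit and 1043 with these offsets. Depth limits NCI-H196 GFP sg2, where the 9 genes had 1 to 17 reads.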
